A study of Mus musculus with 18 samples.

Results

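The tumor suppressor p53 and 8 genes it is known to control were followed in the fasted liver of mice fed a riboflavin-deficient diet, without or with fenofibrate. The 9 genes were Trp53, which encodes p53 itself, and Cdkn1a, Mdm2, Ccng1, Phlda3, Bax, Bbc3, Trp53inp1 and Gadd45a, out of the 54532 genes listed in each of 2 deposited FPKM tables. They were found by gene name, and all 9 were present in both tables. The list was chosen by their FPKM values in the same comparisons described here, so differences between groups in these 9 genes are given as values with their spread and without a p-value.

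Liver RNA was sequenced from 18 wild-type male C57BL/6J mice, 1 library per mouse, after an overnight fast. A total of 5 mice received the control diet (Ctrl) and 5 the 99% riboflavin-deficient diet (B2D) for 1 month from 4 weeks of age. In a separate experiment, 8 mice, 4 per diet (Ctrl+FF and B2D+FF), were kept on diet for 9 weeks. They were gavaged daily in weeks 7 to 9 with fenofibrate (FF), an agonist of the nuclear receptor PPARα, and took the last dose 2 h before harvest. Between the experiments, FF, the time on diet, the age of the mice and the deposited table changed together and cannot be told apart, so no test was made of FF against no FF.

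p53 is a transcription factor whose amount is held low in unstressed cells because its own target Mdm2 encodes the ubiquitin ligase that marks it for degradation. After DNA damage or other stress the protein is stabilized and binds response elements near its target genes, whose products arrest the cell cycle, repair DNA or start apoptosis. Several of these genes are also controlled without p53, and Cdkn1a, which encodes the cyclin-dependent kinase inhibitor p21, is one of them. Because p53 is regulated mainly as a protein, its mRNA level alone is a poor guide to its activity.

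To place the genes, their promoters were searched for the p53 response element, the 20-base palindromic consensus that p53 binds and that reads the same on both strands, over the 250 bases before and 50 bases after each annotated start (RefSeq, build GRCm38.p6, the build the tables use). A total of 8 of the 9 genes matched the promoter table, with 11 windows, and Trp53inp1 was not among them. The best matches of Cdkn1a and Ccng1 are shown because they were the closest to the consensus, and those of Bax and Mdm2 because they show windows with weaker matches. Capitals mark the best match in each sequence, printed 5′ to 3′ on the strand of the gene.
Cdkn1a, chr17:29090908-29090967, plus strand, 1 mismatch: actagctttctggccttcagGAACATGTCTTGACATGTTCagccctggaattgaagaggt
Ccng1, chr11:40755442-40755501, minus strand, 1 mismatch: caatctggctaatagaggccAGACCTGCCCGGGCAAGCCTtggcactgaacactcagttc
Bax, chr7:45467070-45467129, minus strand, 3 mismatches: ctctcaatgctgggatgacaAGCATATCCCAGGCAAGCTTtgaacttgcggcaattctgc
Mdm2, chr10:117710905-117710964, minus strand, 5 mismatches: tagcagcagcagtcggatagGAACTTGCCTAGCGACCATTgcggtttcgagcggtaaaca

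The Cdkn1a match lay 51 to 32 bases before the upstream of its 2 annotated starts, and the Ccng1 match 195 to 176 bases before its start. A match within 1 mismatch was found in 29 of 32851 promoter windows of all genes, or 0.0883%. Trp53, Bax, Bbc3 (1 of its 3 starts) and Gadd45a came within 3 mismatches, as did 6.29% of all windows. The best matches of Mdm2, of Phlda3 and of the other Cdkn1a start had 5 mismatches, which 76.6% of windows reach. These are letter matches in a short window and say nothing of binding elsewhere in the genes.

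**Figure D1:**
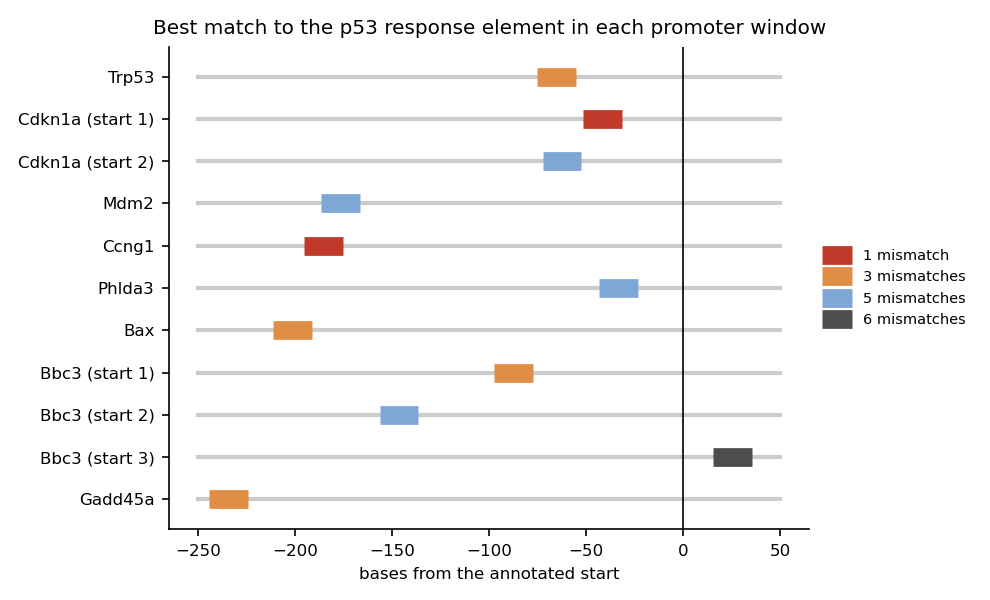
Position of the best match to the p53 response element in each of the 11 promoter windows of 8 genes (horizontal axis, bases from the annotated start; grey lines, the window searched; colored blocks, the 20-base match, colored by its number of mismatches). Cdkn1a at its upstream start and Ccng1 hold matches with 1 mismatch.

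FPKM values (fragments per kilobase of a gene, scaled for each library) were used as deposited. The scaling did not follow the reads assigned to genes alone. Libraries held 15320729 to 21898502 reads assigned to genes, and libraries of a group correlated at 0.979 to 0.994 over genes. Differences in log2 are between group means of log2(FPKM + 1), a scale on which differences of low genes come out too small, and are given with their standard error. Genes outside the 9 were tested with limma, a linear model with moderated variances, over all genes averaging at least 0.5 FPKM, with p-values adjusted by Benjamini-Hochberg and a threshold of 0.05. These criteria called 2.7% of 11574 genes in B2D against Ctrl (0.769% higher and 1.94% lower) and 4.45% of 11878 genes in B2D+FF against Ctrl+FF (2.24% higher and 2.21% lower). An unadjusted p under 0.05 in limma was reached by 2124 of the 11574 genes and by 2519 of the 11878. Counts at an unadjusted p given below are to be read beside these. In bulk liver, fewer cells of a type and less RNA per cell cannot be told apart.

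To check the tissue, 10 hepatocyte markers were summed, and they reached 38517 to 54060 FPKM in the mice without FF and 24114 to 31449 FPKM in those with FF. Each marker sum given here is on the scale of its own table, and no sums were made with the tables scaled together. None of the 10 was at 0 in any group. The summed levels of Kupffer cell and macrophage markers had medians of 145 FPKM in Ctrl (130 to 160) and 121 in B2D (103 to 139). With FF the medians were 127 in Ctrl+FF (105 to 176) and 114 in B2D+FF (71.3 to 180.5). Over all 18 mice, the sums of endothelial markers ran from 26.5 to 42.5, of stellate cell markers from 21.5 to 60.2, and of lymphocyte and neutrophil markers from 0.89 to 11.2 FPKM. The neutrophil marker Ly6g was listed at 0 in every mouse of Ctrl, B2D and B2D+FF. The 6 cholangiocyte markers differed more between groups, with medians of 24.4 FPKM in Ctrl (11.1 to 38.0), 16.2 in B2D (8.22 to 21.7), 7.27 in Ctrl+FF (6.55 to 11.4) and 8.25 in B2D+FF (4.78 to 8.93), and their part in the levels of Cdkn1a and the other 8 genes was not tested.

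Trp53 mRNA was present at a few FPKM in every mouse. The 5 Ctrl mice had 3.36, 3.94, 4.39, 3.36 and 3.33 FPKM, and the 5 B2D mice 3.81, 4.03, 2.25, 3.29 and 3.76 FPKM. With FF, the Ctrl+FF mice had 3.34, 2.90, 2.59 and 2.32 FPKM and the B2D+FF mice 2.95, 2.50, 1.97 and 2.40 FPKM. The groups overlapped in both experiments, and the log2 differences were -0.09 (SE 0.13) in B2D against Ctrl and -0.13 (SE 0.118) in B2D+FF against Ctrl+FF. Mdm2, the inhibitor of p53 and one of its targets, averaged 6.10 ± 1.22 (SD, n = 5) FPKM in Ctrl, 6.72 ± 1.02 in B2D (n = 5), 5.80 ± 0.566 in Ctrl+FF (n = 4) and 5.54 ± 0.755 in B2D+FF (n = 4). Its log2 differences were 0.13 (SE 0.14) and -0.06 (SE 0.1), within the spread between mice.

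Among the growth arrest genes, Cdkn1a was higher in B2D than in Ctrl. The Ctrl mice had 1.17, 0.453, 1.47, 0.298 and 2.34 FPKM, and the B2D mice 11.9, 7.35, 3.09, 4.28 and 3.97 FPKM. All 5 B2D mice were above all 5 Ctrl mice, and the means were 6.13 ± 3.62 against 1.15 ± 0.827 FPKM (SD, n = 5 each), a ratio of 5.34. The log2 difference was 1.68 (SE 0.391). Spread within the groups was wide, 7.86 times between the lowest and the highest Ctrl mouse and 3.86 times among the B2D mice, and these values rest on 21 to 781 reads per library.

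With FF, Cdkn1a was high on both diets. The Ctrl+FF mice had 9.23, 16.6, 9.10 and 14.8 FPKM, and the B2D+FF mice 15.9, 6.49, 22.5 and 27.0 FPKM. The groups overlapped: 2 B2D+FF mice were above every Ctrl+FF mouse and 1, mouse 2, was below every one. The means of 17.97 ± 8.90 and 12.4 ± 3.84 FPKM (SD, n = 4 each) gave a 1.45-fold ratio and a log2 difference of 0.38 (SE 0.471). This difference moved to 0.78 without B2D+FF mouse 2 and to 0.14 without B2D+FF mouse 4. The diet difference with FF minus that without FF was -1.30 (SE 0.612), and it was -2.04 with a pseudocount of 0.1, -2.18 by limma voom and -0.91 without B2D+FF mouse 2.

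When the reads recovered from both tables were scaled together, mean Cdkn1a was 1.13 FPKM in Ctrl, 6.02 in B2D, 12.7 in Ctrl+FF and 18.4 in B2D+FF. The lowest Ctrl+FF mouse, at 9.35, was above the highest Ctrl mouse, at 2.31, a ratio of means of 11.2. B2D and B2D+FF overlapped, at a ratio of 3.05. In Ctrl, Cdkn1a ranked the eighth of the 9 genes by mean FPKM, next to Gadd45a, whose range it overlapped. In Ctrl+FF and B2D+FF it ranked the second, and its range overlapped that of Ccng1 in both.

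**Figure D2:**
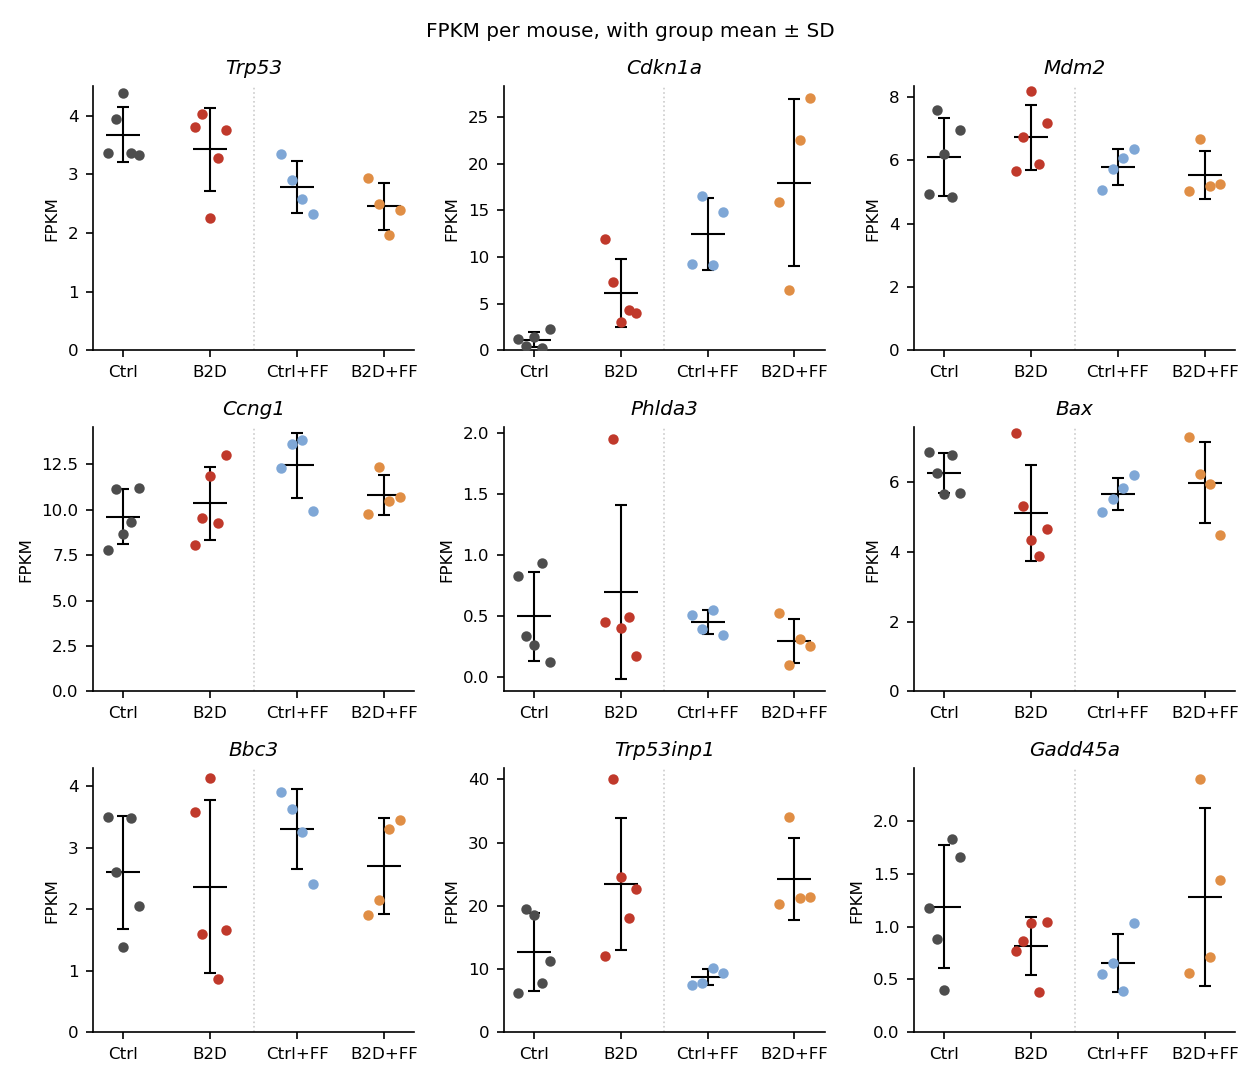
FPKM (vertical axes, each from 0 except for Phlda3, where the SD bar of B2D reaches below 0) of the 9 genes in each mouse of the 4 groups, with the group mean and SD. The dotted line separates the tables, which were normalized separately. The 5 B2D mice lie above the 5 Ctrl mice for Cdkn1a, and the 4 B2D+FF mice above the 4 Ctrl+FF mice for Trp53inp1.

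Ccng1, which encodes cyclin G1, was among the most abundant of the genes. Its values ran from 7.79 to 11.2 FPKM in Ctrl, from 8.09 to 13.0 in B2D, from 9.96 to 13.9 in Ctrl+FF and from 9.76 to 12.3 in B2D+FF. The groups overlapped, with log2 differences of 0.09 (SE 0.146) without FF and -0.18 (SE 0.12) with FF. Its relative Ccng2 averaged 2.97 ± 0.744, 2.54 ± 0.937, 11.3 ± 1.99 and 11.4 ± 5.36 FPKM in Ctrl, B2D, Ctrl+FF and B2D+FF, each on the scale of its own table, and did not pass in either diet comparison.

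Gadd45a, a growth arrest and DNA damage gene that p53 and ATF4 both control, was low. It had 1.18, 0.88, 0.402, 1.83 and 1.65 FPKM in Ctrl, 0.77, 0.863, 1.03, 0.38 and 1.04 FPKM in B2D, 0.553, 0.654, 0.391 and 1.04 FPKM in Ctrl+FF, and 0.566, 2.40, 0.712 and 1.44 FPKM in B2D+FF. The log2 difference was -0.24 (SE 0.21) without FF and 0.40 (SE 0.281) with FF. The second was 0.81 by limma voom on the recovered reads and 0.19 without B2D+FF mouse 2, and the first ran from -0.39 without Ctrl mouse 3 to -0.13 without Ctrl mouse 4. The groups overlapped in both experiments, and the values rest on 12 to 86 reads per library.

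Its relatives differed in level. Gadd45b, of the same family, averaged 4.41 ± 1.14 FPKM in Ctrl, 8.85 ± 3.55 in B2D, 11.7 ± 2.51 in Ctrl+FF and 26.1 ± 5.49 in B2D+FF (n = 5, 5, 4 and 4, with SD). It rose in B2D+FF by a log2 fold change of 1.09 (SE 0.176, limma adjusted p = 0.012), with 4 of 4 mice above every Ctrl+FF mouse and a pass in 8 of 8 fits that left out 1 library. In B2D against Ctrl its log2 fold change of 0.81 did not pass (limma adjusted p = 0.1), and the difference between the diet effects did not pass either (adjusted p = 0.774). Gadd45g averaged 20.4 ± 15.3, 37.1 ± 16.03, 37.0 ± 7.93 and 79.4 ± 35.3 FPKM in the same order and did not pass in either comparison.

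Phlda3, an inhibitor of the kinase AKT at the membrane, had the lowest level of the 9, with group means of 0.296 to 0.695 FPKM. The values rest on 3 to 52 reads per library, and its mean of 0.372 FPKM in the FF table was under the limit for testing. B2D mouse 2 had 1.95 FPKM, and the 4 other B2D mice 0.169 to 0.496 FPKM. The groups overlapped in both experiments. Its relative Phlda1 averaged 10.5 ± 2.86, 7.08 ± 2.45, 4.67 ± 0.751 and 2.89 ± 0.807 FPKM in Ctrl, B2D, Ctrl+FF and B2D+FF and did not pass (limma adjusted p = 0.22 and 0.0826), and Phlda2 was too low to be tested. Of 9 family relatives tested, limma called 0 without FF and 1, Gadd45b, with FF, beside 2.7% and 4.45% of all genes. Without FF, 5 reached an unadjusted p under 0.05, beside 2124 of 11574 of all genes, and limma voom called 0.

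Bax, a pore-forming protein of the BCL2 family that opens the outer mitochondrial membrane, had 6.88, 6.28, 5.66, 6.78 and 5.70 FPKM in Ctrl and 7.41, 5.32, 4.34, 3.89 and 4.67 FPKM in B2D. A total of 4 of 5 B2D mice were below every Ctrl mouse and B2D mouse 1 was above every one, so the groups overlapped, with a log2 difference of -0.27 (SE 0.144). With FF, Bax averaged 5.68 ± 0.458 FPKM on the control diet and 5.99 ± 1.16 FPKM on the deficient diet, a log2 difference of 0.05 (SE 0.134). Bbc3, which encodes the BH3-only protein PUMA, ran from 0.873 to 4.13 FPKM in B2D, beyond both ends of its Ctrl range of 1.38 to 3.49 FPKM. Its log2 differences were -0.16 (SE 0.323) without FF and -0.23 (SE 0.193) with FF.

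Trp53inp1, a stress protein that takes part in autophagy and in p53-dependent cell death, had the highest mean FPKM of the 9 genes in Ctrl, B2D and B2D+FF, with a range that overlapped the next gene in each. The Ctrl mice had 6.27, 19.5, 18.6, 7.79 and 11.3 FPKM, and the B2D mice 12.0, 40.1, 24.5, 18.1 and 22.7 FPKM. A total of 3 of 5 B2D mice were above every Ctrl mouse, and the groups overlapped. The means were 12.7 ± 6.11 and 23.5 ± 10.4 FPKM (SD, n = 5 each), a ratio of 1.85 and a log2 difference of 0.86 (SE 0.404).

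With FF, Trp53inp1 was low in Ctrl+FF, at 7.53, 7.82, 10.3 and 9.42 FPKM, and high in B2D+FF, at 20.3, 34.0, 21.3 and 21.4 FPKM. All 4 B2D+FF mice were above all 4 Ctrl+FF mice. The ratio of means was 2.77 and the log2 difference 1.35 (SE 0.194), which ranged from 1.18 to 1.42 when each library was left out in turn. The diet difference with FF minus that without FF was 0.49 (SE 0.449), and it ran from 0.29 without B2D mouse 1 to 0.70 without B2D mouse 2. On the joint scale, mean Trp53inp1 was 12.5 FPKM in Ctrl, 8.93 in Ctrl+FF, 23.2 in B2D and 24.7 in B2D+FF, and neither diet's groups without and with FF were apart. Its relative Trp53inp2, an autophagy gene, averaged 50.8 ± 4.37, 43.4 ± 10.96, 48.4 ± 6.14 and 42.3 ± 1.69 FPKM in Ctrl, B2D, Ctrl+FF and B2D+FF and did not pass in either comparison.

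**Figure D3:**
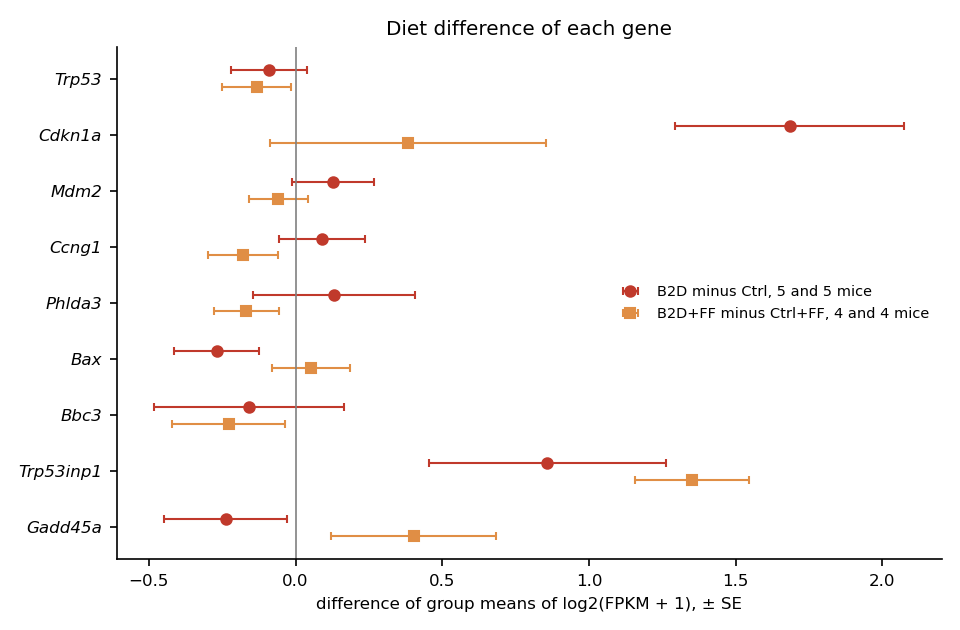
Diet difference of each gene, as group means of log2(FPKM + 1) with SE (horizontal axis), without FF (circles, B2D minus Ctrl) and with FF (squares, B2D+FF minus Ctrl+FF). Cdkn1a without FF, at 1.68, and Trp53inp1 with FF, at 1.35, lie farthest from 0.

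Over the 9 genes, the groups were apart and higher on the deficient diet for 1 gene without FF (Cdkn1a) and for 1 gene with FF (Trp53inp1). None was apart and lower, and 8 overlapped in each experiment. Of all genes tested, groups were apart and higher for 2.08% and apart and lower for 2.89% without FF, and for 7.82% and 6.44% with FF. Because the genes were selected on these contrasts, nothing is read from those shares. All 9 genes passed the limit on low values without FF and 8 with FF, all but Phlda3. Leaving out B2D mouse 1 made 2 genes apart in B2D against Ctrl, with Bax lower beside Cdkn1a higher, and leaving out B2D+FF mouse 1 made 2 apart with FF, with Phlda3 lower beside Trp53inp1 higher. The 7 genes other than Cdkn1a and Trp53inp1 had log2 differences from -0.27 to 0.13 without FF and from -0.23 to 0.40 with FF.

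Cdkn1a and Trp53inp1 did not take the same order in the mice. B2D mouse 1 had the highest Cdkn1a of its group, 11.9 FPKM, and the lowest Trp53inp1, 12.0 FPKM. B2D+FF mouse 2 had the lowest Cdkn1a of its group, 6.49 FPKM, and the highest Trp53inp1, 34.0 FPKM. After each group's mean was removed, the correlation of Cdkn1a with Trp53inp1 on the log2 scale was -0.28 over the 18 mice. Trp53inp1 varied with Mdm2, at r = 0.75, and Mdm2 with Ccng1, at r = 0.65. These were the 2 of 36 pairs above 0.5. The 36 pairs had a median of 0.01, with 18 above and 18 below 0, and the lowest was Mdm2 with Phlda3 at -0.47. These correlations describe 18 libraries that share a table and its scaling within each experiment, and carry no test.

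**Figure D4:**
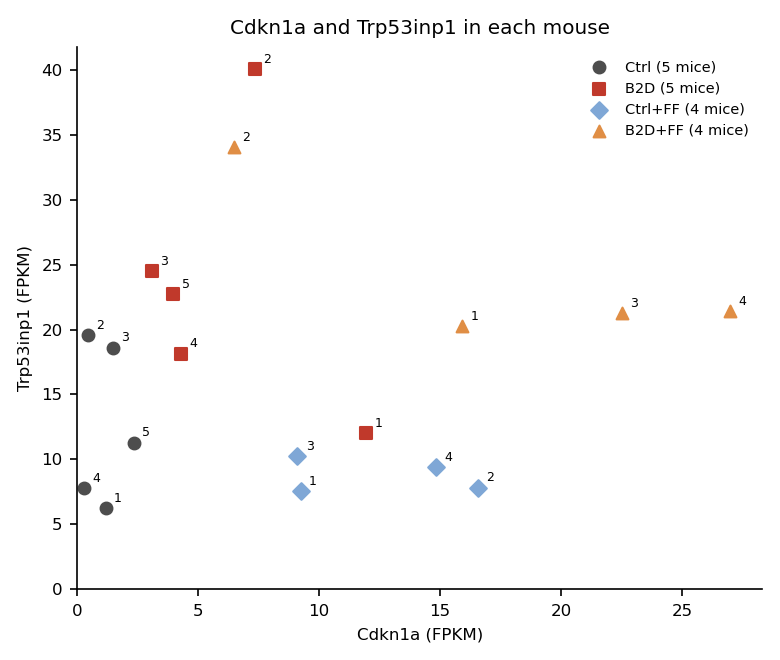
Trp53inp1 (vertical axis, FPKM) against Cdkn1a (horizontal axis, FPKM) in each mouse, with mouse numbers and a symbol for each group. Ctrl+FF mice have Cdkn1a from 9.10 to 16.6 FPKM with Trp53inp1 from 7.53 to 10.3 FPKM, while Ctrl mice reach 19.5 FPKM of Trp53inp1 with Cdkn1a of at most 2.34 FPKM.

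The genes whose pattern was most like that of Cdkn1a were sought among 8652 protein-coding genes with a mean of at least 1 FPKM in both tables, by Pearson correlation of log2(FPKM + 1) over the 18 mice after each table's mean was removed. They were Nedd4l (r = 0.88), Pdk4 (r = 0.86), Eml3 (r = 0.82), Zmym4 (r = 0.80) and Grn (r = 0.80). Pdk4, a kinase that turns off pyruvate dehydrogenase in fasting and a known PPARα target, averaged 4.62 ± 2.00 FPKM in Ctrl, 12.3 ± 5.57 in B2D, 109.5 ± 30.2 in Ctrl+FF and 208 ± 111 in B2D+FF. Its r with Cdkn1a was 0.88 over the mice without FF and 0.89 over those with FF. Group means were not removed in this search, so its r values include the diet difference. The other genes named differed less between Ctrl and Ctrl+FF, each on the scale of its own table. Nedd4l averaged 2.33 and 2.52 FPKM, Eml3 4.03 and 4.51, Zmym4 1.23 and 1.29, and Grn 80.0 and 85.0. Control of Cdkn1a by PPARα was not tested. Most like the mean of the 9 genes, each scaled to unit variance, were Angptl8 (r = 0.78), Irak2 (r = 0.77), Sirt1 (r = 0.74), Tob1 (r = 0.71) and Gpn3 (r = 0.68). The value of Irak2 was 0.91 without FF and -0.10 with FF. These r values are the highest of 8652 searched and are given as a description.

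Other genes that p53 is known to control were then examined, 59 in all, of which 41 could be tested without FF and 40 with FF. In B2D against Ctrl, 1 of 41 was called, beside 2.7% of all genes. It was Sesn2, a stress-induced regulator of mTORC1 that is also a target of ATF4, which rose from a mean of 2.19 (SD 0.302, n = 5) to 3.51 FPKM (SD 0.684, n = 5), by a log2 fold change of 0.49 (SE 0.118, limma adjusted p = 0.048), in 5 of 5 mice. The call was lost in 8 of the 10 fits that left out 1 library, with limma adjusted p of 0.0869, 0.118, 0.0862, 0.08 and 0.0845 without Ctrl mice 1 to 5 and 0.103, 0.0844 and 0.095 without B2D mice 2, 3 and 5. It was also lost without a filter (limma adjusted p = 0.133), with upper quartile scaling (0.0817) and with quantile normalization (0.0592). Array weights (0.0574) and all 4 groups in 1 fit (0.116) lost it too. The median log2 fold change of the 41 was -0.01, beside -0.0013 for all genes, with 20 above and 21 below 0. Of the 41, 8 reached an unadjusted p under 0.05 in limma, beside 2124 of 11574 of all genes, and limma voom called 1.

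In B2D+FF against Ctrl+FF, 2 of 40 were called, beside 4.45% of all genes, and both rose. Btg2, an antiproliferative gene that is also induced early by other signals, went from 3.55 ± 0.672 to 11.01 ± 5.26 FPKM, a log2 fold change of 1.32 (SE 0.247, limma adjusted p = 0.0203). Lpin1, a phosphatidate phosphatase and transcriptional coactivator induced by fasting, went from 6.56 ± 3.76 to 22.0 ± 5.96 FPKM, a log2 fold change of 1.69 (SE 0.318, limma adjusted p = 0.0208). In both genes 4 of 4 B2D+FF mice were above every Ctrl+FF mouse. The calls were lost without Ctrl+FF mouse 1, 2 or 3, with limma adjusted p of 0.071, 0.0593 and 0.0617 for Btg2 and 0.0582, 0.0733 and 0.0569 for Lpin1. The median of the 40 was 0.01, beside 0.01 for all genes, with 22 above and 18 below 0. Of the 40, 12 reached an unadjusted p under 0.05 in limma, beside 2519 of 11878 of all genes, and limma voom called 4.

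Ddit4, Gdf15 and Plk3, singled out after their values were seen, had log2 fold changes of 1.63, 1.56 and 1.23 with FF and did not pass (limma adjusted p = 0.0896, 0.113 and 0.0818). Of the 59 targets, Ddit4, Gdf15 and Sesn2 also stand on a list of 14 ATF4 stress genes, 5.08% of the first list and 21.4% of the second. That list had 2 of 11 genes called higher without FF, Atf5 and Sesn2, and 3 of 13 with FF, Fgf21, Psat1 and Trib3, with medians of 0.43 and 0.68. Of all genes, 0.769% and 2.24% were called higher, and the list was chosen with earlier results of these data known. When 1 library was left out, Atf5 lost its call in 7 of 10 fits, Psat1 and Trib3 in 2 of 8 each and Fgf21 in 0 of 8. Between the experiments, limma called 0 of 40 p53 targets in the difference of the diet effects, where 0.228% of all genes were called. An unadjusted p under 0.05 was reached by 4 of the 40, beside 1411 of 11862 of all genes, and limma voom on the recovered reads called 0.

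**Figure D5:**
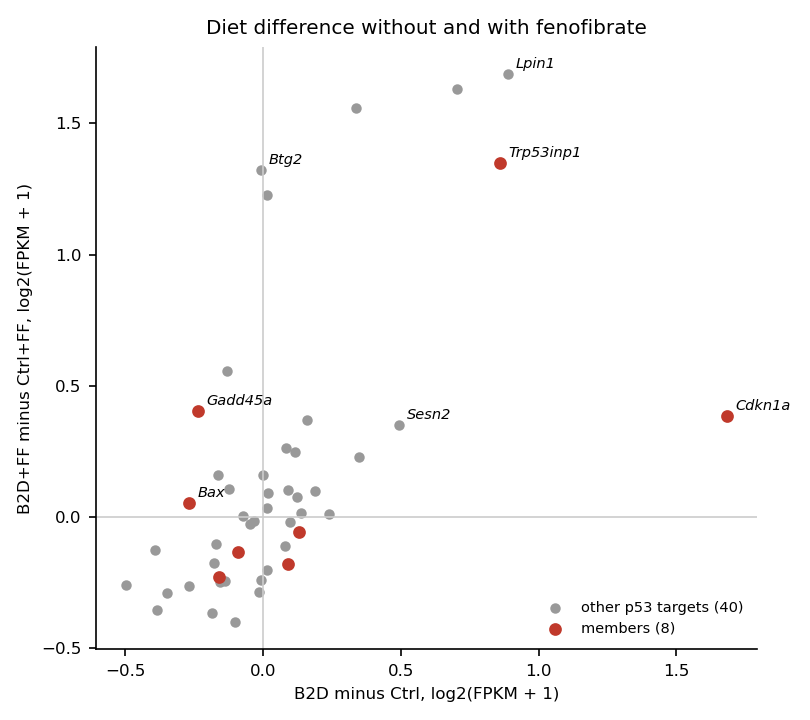
Diet difference in log2(FPKM + 1) without FF (horizontal axis) and with FF (vertical axis) for the 40 other p53 targets tested in both experiments (grey) and the 8 of the 9 genes tested in both (red, labelled members). Without FF 38 of the 40 lie within 0.5 of 0 and with FF 34 do, while Cdkn1a lies to the right and Lpin1 and Trp53inp1 toward the top.

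Of 27 genes that act on p53 or share its function, 21 were tested. In B2D against Ctrl, limma called 0, with 3 at an unadjusted p under 0.05 (beside 2124 of 11574 of all genes) and 0 called by limma voom. With FF 1 of 21 was called, beside 4.45% of all genes. It was Nqo1, an NRF2 target whose protein protects p53 from proteasomal degradation. It rose from 7.65 ± 0.584 to 12.1 ± 1.40 FPKM, a log2 fold change of 0.59 (SE 0.0969, limma adjusted p = 0.0133), in 4 of 4 mice, and missed the threshold without Ctrl+FF mouse 2 (adjusted p = 0.0526) and with all 4 groups in 1 fit (adjusted p = 0.135), which left 0 of these genes called. Mdm4, the partner of Mdm2, averaged 2.88 ± 0.36, 3.65 ± 0.662, 2.998 ± 0.166 and 3.16 ± 0.198 FPKM in Ctrl, B2D, Ctrl+FF and B2D+FF and did not pass. The p53 relatives Trp63 and Trp73 reached at most 0.048 and 0.032 FPKM in any mouse.

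The other growth arrest genes held calls in both directions, 3 of 16 tested in each experiment, beside 2.7% of all genes without FF and 4.45% with FF. The list was chosen with earlier results of these data known. In B2D against Ctrl, Gas2, a caspase substrate of the cytoskeleton first found in growth-arrested cells, fell from 7.45 ± 0.774 to 3.93 ± 0.75 FPKM, a log2 fold change of -0.79 (SE 0.116, limma adjusted p = 0.00653), and passed in 10 of 10 fits that left out 1 library. Wee1, the kinase that holds CDK1 inactive, fell from 6.09 ± 1.13 to 2.95 ± 1.44 FPKM, with B2D mouse 3 inside the Ctrl range (limma adjusted p = 0.038), a call that 8 of 10 such fits lost. Cdkn2c, which encodes the CDK4 and CDK6 inhibitor p18, rose from 1.95 ± 0.155 to 3.17 ± 0.412 FPKM (log2 fold change 0.50, limma adjusted p = 0.018) and missed the threshold without Ctrl mouse 2 or 4 (adjusted p = 0.0618 and 0.0533).

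With FF, Klf6, a zinc-finger factor that can activate Cdkn1a, rose from 1.63 ± 0.167 to 5.07 ± 2.01 FPKM, a log2 fold change of 1.16 (SE 0.184, limma adjusted p = 0.0117), and Gadd45b rose as given above. Gas1, a membrane protein of growth arrest, fell from 2.83 ± 0.332 to 1.47 ± 0.205 FPKM, a log2 fold change of -0.63 (SE 0.0934, limma adjusted p = 0.00929). Klf6 and Gas1 were apart in 4 of 4 against 4 of 4 mice and passed in 8 of 8 fits without 1 library. The p21 relatives Cdkn1b and Cdkn1c, of the same inhibitor family, did not pass. Cdkn1b averaged 6.67 ± 0.749, 5.44 ± 0.78, 3.85 ± 0.336 and 3.77 ± 0.242 FPKM, and Cdkn1c 0.564 ± 0.155, 0.81 ± 0.269, 1.22 ± 0.178 and 1.44 ± 0.282 FPKM, in Ctrl, B2D, Ctrl+FF and B2D+FF.

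Of 41 proliferation genes, 18 could be tested without FF and 16 with FF, since most were too low. Without FF limma called 2 of 18, both lower, beside 2.7% of all genes. With FF it called 2 of 16, 1 higher and 1 lower, beside 4.45% of all genes. Tk1, the thymidine kinase of S phase, fell in both experiments, from 5.60 ± 1.55 to 1.97 ± 0.961 FPKM without FF (log2 fold change -1.19, limma adjusted p = 0.0235, lost in 4 of 10 fits without 1 library) and by 1.03 on the log2 scale with FF, where 8 of 8 such fits passed. Ccne1, which encodes cyclin E1, fell without FF from 0.813 ± 0.195 to 0.211 ± 0.167 FPKM, on 4 to 55 reads per library (limma adjusted p = 0.0265). It passed the filter on low values in 6 of the 10 fits that left out 1 library, and the call was lost in 2 of these, without B2D mouse 2 (limma adjusted p = 0.0568) or mouse 4 (0.066), and in the fit with no filter (0.0619). Rrm2, a subunit of ribonucleotide reductase, rose with FF by 0.50, a call that 7 of 8 fits without 1 library lost. The medians of the tested genes were -0.04 without FF and 0.07 with FF, beside -0.0013 and 0.01 for all genes.

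Among 21 other BCL2 family and caspase genes, limma called 0 of 17 in B2D against Ctrl. An unadjusted p under 0.05 was reached by 5, beside 2124 of 11574 of all genes, and limma voom called 0. With FF 1 of 17 was called, beside 4.45% of all genes. It was Cycs, which encodes cytochrome c and rose from 51.6 ± 4.27 to 82.5 ± 11.7 FPKM (log2 fold change 0.66, limma adjusted p = 0.0182). Cycs has processed copies in the genome, so its counts are uncertain, and its call was lost in 4 of 8 fits without 1 library. Bak1, the relative of Bax, averaged 4.07 ± 0.759, 3.58 ± 0.767, 4.25 ± 0.76 and 4.51 ± 0.635 FPKM in Ctrl, B2D, Ctrl+FF and B2D+FF and did not pass.

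Of the cell type markers, limma called 2 of 10 Kupffer cell and macrophage markers lower in B2D than in Ctrl, beside 1.94% of all genes. They were C1qa (log2 fold change -0.50) and Clec4f (-0.47), calls that 6 and 9 of 10 fits without 1 library lost. Of these 10 markers, 1 was above and 9 below 0 in B2D against Ctrl, with a median of -0.20. None of the other lists held a call there: 0 of 10 hepatocyte, 0 of 7 endothelial, 0 of 8 stellate, 0 of 3 cholangiocyte and 0 of 2 lymphocyte and neutrophil markers (3, 1, 1, 0 and 1 at an unadjusted p under 0.05, and 1, 0, 0, 0 and 0 called by limma voom). With FF, limma called 3 of 10 hepatocyte markers, 2 higher and 1 lower, beside 4.45% of all genes. Of these 10, 7 reached an unadjusted p under 0.05, beside 2519 of 11878 of all genes, and limma voom called 3. The hepatocyte markers Tat (1.35) and Pck1 (0.84), both induced by fasting, and the endothelial marker Lyve1 (0.77) rose. These calls were lost in 1, 6 and 4 of 8 fits without 1 library. Lyve1 was the only 1 of 7 endothelial markers called. Of the 7, 2 were above and 5 below 0, with a median log2 fold change of -0.03. Serpina1c, also a hepatocyte marker, fell (-1.35), and its reads are uncertain because near-identical Serpina1 copies exist. Kupffer cell, stellate, cholangiocyte and lymphocyte lists held 0 calls of 10, 7, 2 and 2 tested with FF (2, 1, 1 and 1 at an unadjusted p under 0.05, and 0, 1, 0 and 0 by limma voom). Of the 10 Kupffer cell and macrophage markers, 2 were above and 8 below 0 with FF, with a median of -0.28. The part of these markers in the values of the 9 genes was not tested.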

How the data were processed

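The authors prepared mRNA libraries from total liver RNA with a NEBNext Ultra kit, aligned reads with STAR to mm10 and counted them per gene with featureCounts (versions not given in the sources used here), and deposited 2 tables of FPKM with gene lengths. Each table was normalized separately, so diets were compared only within a table. FPKM multiplied by gene length came to whole reads, within 0.05 of a read, for 100% of the nonzero values under 1000 reads, the range checked. The recovered reads gave depth, the joint scale (median of ratios over 18 libraries) and the limma voom alternative. Strand-specific counting is not stated. The low-expressed genes AC167363.2, Gm45808 and E230016M11Rik, each under 0.24 FPKM on average, overlap Cdkn1a, Bax and Gadd45a.

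Tests used limma 3.58.1 in R 4.3.3 (trend) on log2(FPKM + 1), with Benjamini-Hochberg adjustment over all genes, and were checked on simulated data. The 9 genes and all lists were chosen with earlier results of these data known. The standard error of a difference combines both groups' variances. Named genes are the 9, up to 5 called per list and comparison with the smallest adjusted p, their family relatives and the 5 most like Cdkn1a and like the mean of the 9. Nothing says whether the mice shared cages. Figures used matplotlib 3.10.9 under Python 3.11.15. Alternatives tried were no filter, a pseudocount of 0.1, a mean FPKM of at least 5, upper quartile scaling, quantile normalization, limma voom, array weights, all 4 groups in 1 fit, the joint scale and leaving out each library.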

Additional observations from a re-analysis of the deposited data

Results flagged for a closer look

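In each group of 4 or 5 mice, the highest and lowest values were compared with the rest by Dixon's ratio at its 95% critical value. Chance flags about 1 in 20 groups, and 8 of 132 groups were flagged, 3 of them among the 36 of the 9 genes. B2D+FF mouse 2 stood above the rest of its group for Mdm2 (6.66 FPKM, next highest 5.26), Trp53inp1 (34.0 FPKM, next 21.4) and, outside the 9 genes, Klf6 (8.08 FPKM, next 4.27). This mouse also had the lowest Cdkn1a of its group, and Trp53inp1 stayed apart without it. B2D mouse 2 was high for Phlda3 (1.95 FPKM, next 0.496).

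Of the called genes on the lists, B2D mouse 1 was low for Cdkn2c (2.45 FPKM, next 3.27), Ctrl mouse 2 was low for Lpin1 (7.14 FPKM, next 16.1), B2D mouse 5 was high for Lyve1 (9.82 FPKM, next 5.49) and B2D mouse 3 was high for Wee1 (5.45 FPKM, next 2.66).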

How the results depend on the processing

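Genes called in B2D against Ctrl numbered 313, and 67 without a filter, 208 with upper quartile scaling, 777 with all 4 groups in 1 fit and 98 to 332 when each library was left out. Genes called in B2D+FF against Ctrl+FF numbered 529, and 272 without a filter, 885 with array weights and 175 to 596 with a library left out. The difference of the diet effects held 27 calls, and 16 with a pseudocount of 0.1, 13 with limma voom, 136 with array weights and 17 to 66 with a library left out. Other p53 targets called in B2D against Ctrl were 1, and 0 without a filter, 0 at a mean FPKM of at least 5, 0 with upper quartile scaling, 2 with all 4 groups in 1 fit and 0 to 1 with a library left out. Sesn2 was not called with all 4 groups in 1 fit, so the 2 calls there were other genes. With quantile normalization and with array weights the count stayed at 1, but Sesn2 was not called. With FF the other p53 targets called were 2, and 0 without a filter, 4 with limma voom, 5 with array weights and 0 to 3 with a library left out. The cause of these shifts was not tested.

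Under the alternatives, Cdkn1a in B2D against Ctrl was 2.44 with a pseudocount of 0.1 and 2.58 with limma voom, and 1.44 to 1.87 with a library left out. Its difference of the diet effects was -2.04 and -2.18 under the same 2 settings, Gadd45a with FF was 0.81 with limma voom, and the difference of the diet effects for Gadd45a was 1.14 with a pseudocount of 0.1 and 1.27 with limma voom, from 0.64. None of the 25 calls of named genes changed direction in 404 refits, which says little because the refits share mice and the genes were picked as called. The call was kept in 295 of the 404. Of the 214 fits that left out 1 library, 135 kept it, and 7 of the 25 calls held in all such fits. The 36 group means of the 9 genes moved by less than 1 SD on the joint scale. No paired analysis was possible because the labels give no replicate numbers shared between groups. Low reads limit Phlda3, Gadd45a and, in Ctrl, Cdkn1a.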
